A study of Homo sapiens with 6 samples.

Results

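The metallothionein genes and MTF1, the transcription factor that senses zinc, were examined in 786-O cells, a human line long established from a clear cell renal carcinoma. The members were chosen by name: 8 genes of the 20030 listed, namely MT2A, MT1A, MT1E, MT1F, MT1G, MT1M, MT1X and MTF1. Messenger RNA was sequenced from 3 libraries of cells with stable YB1 knockdown (shYB1) and 3 libraries of control cells (vector), whose shRNA is labelled scrambled. Both groups were infected with lentivirus and selected with puromycin, were harvested 7 days after selection and are labelled as passages 16-18. The labels give a single shYB1 group, although the design text of the series speaks of several shRNAs. Whether the replicates came from separate cultures or clones is not stated, so the p-values measure only the spread between these libraries. Levels are FPKM, that is, fragments scaled to transcript length and to the mapped fragments of the library. Genes averaging 1 FPKM or more across all 6 libraries were compared on log2(FPKM + 0.1) with limma, and a gene was called higher or lower at an adjusted p under 0.05. On this scale, fold changes of weakly expressed genes come out too small.

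Metallothioneins are very small proteins rich in cysteine that bind zinc, copper and cadmium, and they buffer free zinc and protect cells from heavy metals. Their genes are induced when MTF1 binds zinc, enters the nucleus and occupies metal response elements in their promoters, and glucocorticoids and oxidative stress induce several of them as well. In the kidney they are known for binding cadmium in the proximal tubule, the segment from which clear cell carcinoma is thought to arise. YB1 is a cold-shock domain protein that binds RNA and was named for the Y-box, a CCAAT motif of some promoters.

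The 7 metallothionein members lie together on chromosome 16 of GRCh38 from 56608199 to 56684196, a span of 76.0 kb, whereas MTF1 lies on chromosome 1 from 37809567 to 37859620 on the minus strand. Each metallothionein transcript matched to the deposited accession has 3 exons, and in 6 of the 7 transcripts the coding sequence has 186 bases. The matched transcript of MT1F has a coding sequence of 135 bases. Other transcripts of MT1F were not described, so this length does not stand for the gene. The coding sequences of MT1X, the member called higher in shYB1 cells, and of MT2A, the most abundant member, are given from the GENCODE 29 transcripts to show how alike they are. The capitals mark the in-frame codons TGC and TGT, which encode cysteine.
MT1X: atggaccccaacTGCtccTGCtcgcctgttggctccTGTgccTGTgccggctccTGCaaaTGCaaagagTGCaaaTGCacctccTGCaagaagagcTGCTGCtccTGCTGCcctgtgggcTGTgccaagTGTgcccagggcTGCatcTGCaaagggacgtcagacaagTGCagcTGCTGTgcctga
MT2A: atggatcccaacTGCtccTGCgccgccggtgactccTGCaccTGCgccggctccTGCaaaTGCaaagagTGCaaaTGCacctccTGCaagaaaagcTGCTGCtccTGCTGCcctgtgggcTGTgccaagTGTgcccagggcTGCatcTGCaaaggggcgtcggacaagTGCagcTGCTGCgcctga
In both genes 20 of the 61 codons before the stop, or 32.8%, are of this kind. The same count of 20 was found in MT1A, MT1E, MT1G and MT1M. In MTF1, by contrast, 21 of 753 codons are TGC or TGT. The coding sequences of MT1X and MT2A differ at 14 of 186 bases, an identity of 92.5%. Over all pairs of the 6 matched transcripts with a coding sequence of 186 bases, the identity lay between 89.8% and 95.2%.

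Such likeness bears on how reads were assigned. Of the 50-base words in the MT1X transcript, 45.1% occur in a transcript of another gene. The largest part, 29.2%, is shared with AC026461.1, a noncoding transcript on the same strand that overlaps MT1X, and 9.48% is shared with the pseudogene MT1XP1. Neither was listed under this name among the deposited genes, so neither was analysed here. Reads that lie within the shared words cannot be told apart by gene. With genes listed above 0 FPKM in the table, MT1X shares 4.49% of its words. The overlap is smaller in the matched transcripts of the other members with values. There 4.88% of the words of MT2A, 5.34% of those of MT1E and 0.272% of those of MT1F occur elsewhere. The value of MT1F does not cover its other transcripts. Counted over all its transcripts, MT1F holds 15 words of MT1M, 13 of MT1G, 5 of MT1A and 4 of MT1X. The value of MT1X is therefore uncertain to the extent that the authors' counting split or added shared reads.

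The promoter of MT1X is shown because metal response elements lie there. Promoter windows were taken as the 250 bases before the start in RefSeq, on GRCh38.p14, and lie on the plus strand at chr16:56608334-56608583 for MT2A and chr16:56682220-56682469 for MT1X. The starts differ between annotations: in GENCODE 29 the MT2A gene begins upstream of its whole window, which is therefore not printed, and the MT1X gene begins within its window, which is printed up to that start (chr16:56682220-56682423). The capitals mark each match, on either strand, to TGCACNC or TGCGCNC, the core of the metal response element.
MT1X promoter: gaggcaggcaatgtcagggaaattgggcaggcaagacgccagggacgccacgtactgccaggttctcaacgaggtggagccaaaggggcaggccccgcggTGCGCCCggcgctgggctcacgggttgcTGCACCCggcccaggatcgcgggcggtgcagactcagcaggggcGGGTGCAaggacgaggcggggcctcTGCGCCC
The MT2A window holds 7 matches and the MT1X window 4, all within the part shown. At least 1 match was found in 24.8% of 35116 promoter windows of the same length, at least 4 in 0.370% and at least 7 in 0.0313%. The Y-box, searched as CCAAT on both strands and thus also as ATTGG, matched 1 time in the MT1X window, on the minus strand near the far end, and 0 times in that of MT2A. At least 1 Y-box was found in 32.0% of the windows. The third member in the promoter table, MTF1, holds 2 Y-box matches, which overlap on opposite strands, and 0 matches to the metal response element core. A match describes letters and does not show that a factor was bound.

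YBX1, the gene of YB1, checked the labels: its level was 366.5 to 377.9 FPKM with vector and 165.9 to 173.3 FPKM with shYB1. All 8 markers fixed for the renal carcinoma line were above 1 FPKM, of which PAX2 was called higher, at 17.1 ± 0.537 FPKM with vector and 19.0 ± 0.740 FPKM with shYB1, and CDH6 lower, at 47.9 ± 0.435 and 33.0 ± 0.299 FPKM (SD, n = 3 each). Of 11 markers of other cell types, 5 were listed at 0 throughout and only CD68 exceeded 1 FPKM. CD68, a lysosomal gene of macrophages, was called lower, at 25.1 ± 0.343 FPKM with vector and 22.4 ± 0.296 FPKM with shYB1 (SD, n = 3 each; adjusted p = 0.00969 from limma). It made up nearly the whole summed level of the 11 markers, 25.3 to 26.2 FPKM with vector and 22.7 to 23.2 FPKM with shYB1. The part of these markers in the results was not tested. Relative to shYB1 replicate 1, the depth of the libraries, read from the spacing of the lowest values, lay between 0.981 and 1.10, and the absolute depth is unknown.

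Of the 8 members, 1 was called higher in shYB1 cells, 0 were called lower, 4 did not pass the test, and 3 were listed at 0 in all 6 libraries. The member called higher was MT1X, whose mean rose 1.55 times. Among all 10439 genes tested, 18.7% were called higher and 6.93% lower, or 25.7% in either direction, so 1 call among 5 tested members is a share of 20%, near the background. The median log2 fold change of the 5 tested members was 0.17, and that of all genes tested was 0.055. With median-of-ratios scaling of the libraries, 11.4% of genes were higher and 12% lower, and MT1X was still the member called.

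MT2A, which is expressed in most tissues and is usually the main human metallothionein, was the most abundant member. Vector replicates 1 to 3 held 1441, 1544 and 1507 FPKM, and shYB1 replicates 1 to 3, in the order kept throughout, held 1596, 1565 and 1899 FPKM. All shYB1 values lay above all vector values, with the highest in shYB1 replicate 3 and only a small gap between the lowest shYB1 and the highest vector library. By mean over the 6 libraries MT2A ranked 15 among all genes listed. The means were 1497 ± 52.3 FPKM and 1687 ± 185 FPKM (SD, n = 3 each). The difference on the log2 scale was 0.17 (standard error 0.068, 95% confidence interval 0.013 to 0.32), and it did not pass the test (adjusted p = 0.104 from limma with Benjamini-Hochberg adjustment). Over the alternatives the adjusted p from limma ranged from 0.00807, with quantile normalization, to 0.281, and without shYB1 replicate 3 the log2 fold change was 0.079. Within bulk RNA, a larger share of cells expressing a gene and more RNA per cell cannot be told apart.

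MT1X, at the far end of the gene cluster from MT2A, was the next most abundant member and ranked 82 among all genes. The vector libraries held 381, 425.4 and 437.2 FPKM, whereas 617.1, 627.8 and 683.5 FPKM were found with shYB1. The groups were well apart, the gap between them being larger than the range within either group. The means were 414.5 ± 29.6 FPKM and 642.8 ± 35.6 FPKM (SD, n = 3 each). On the log2 scale the difference was 0.63 (standard error 0.056, 95% confidence interval 0.51 to 0.76), with an adjusted p of 9.05e-05 from limma. A larger increase was found in 46 of the 10439 genes tested, and larger decreases were not counted. MT1X was called higher in all 15 alternatives at this limit, where its log2 fold change ranged from 0.57 to 0.69 and the adjusted p from limma from 4.20e-06 to 0.00259. The lowest log2 fold change was found without vector replicate 1.

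MT1E lies next to MT2A among the members and had vector values of 57.99, 50.10 and 65.28 FPKM beside shYB1 values of 69.43, 61.20 and 65.14 FPKM. The groups overlapped, since vector replicate 3 was above 2 of the 3 shYB1 libraries. The means were 57.8 ± 7.595 FPKM and 65.3 ± 4.12 FPKM (SD, n = 3 each), a log2 fold change of 0.18 with a standard error of 0.089 (adjusted p = 0.168 from limma). Vector replicate 3 decided the call: without it the log2 fold change was 0.27 and MT1E passed the test (adjusted p from limma 0.0253, against 0.0253 to 0.4 over the alternatives).

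MT1F was the lowest metallothionein with values, with vector values of 14.50, 17.58 and 15.35 FPKM beside shYB1 values of 19.09, 14.31 and 11.22 FPKM. Here the shYB1 libraries spread on both sides of the vector libraries. The means were 15.8 ± 1.59 FPKM and 14.9 ± 3.97 FPKM (SD, n = 3 each), and the log2 fold change was −0.12 (95% confidence interval −0.57 to 0.34, adjusted p = 0.694 from limma). Its sign rested on 1 library, as the log2 fold change was 0.069 without shYB1 replicate 3. The interval does not exclude changes in either direction.

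MT1A, MT1G and MT1M were listed at 0 FPKM in every library, and no fold change is given for them. Of the other metallothionein genes on a fixed list, MT1H, MT1HL1, MT3 and MT4 were listed at 0 as well. MT1B, a near neighbour of MT1A, had vector values of 0, 0 and 1.185 FPKM beside shYB1 values of 0.3772, 0.7396 and 0 FPKM, and was not tested because of its low mean. Along the cluster, the genes with values were thus interspersed with genes listed at 0.

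MTF1 itself was expressed at a low level, with vector values of 2.188, 1.997 and 2.179 FPKM beside shYB1 values of 2.520, 2.350 and 2.252 FPKM. All shYB1 values were above all vector values, by a margin smaller than the range within either group. The means were 2.12 ± 0.108 FPKM and 2.37 ± 0.136 FPKM (SD, n = 3 each). A log2 fold change of 0.16 with a standard error of 0.082 did not pass the test (adjusted p = 0.189 from limma), and in none of the 14 alternatives in which MTF1 was tested did it pass (adjusted p from 0.103 to 0.482). The groups did not overlap in MT2A, MT1X and MTF1, toward higher values in shYB1 cells, as in 30.1% of all genes tested, or 42.6% in either direction. For each of these 3 genes a two-sided exact permutation test gave p = 0.1, and with 3 libraries a group no smaller value can be reached.

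**Figure D1:**
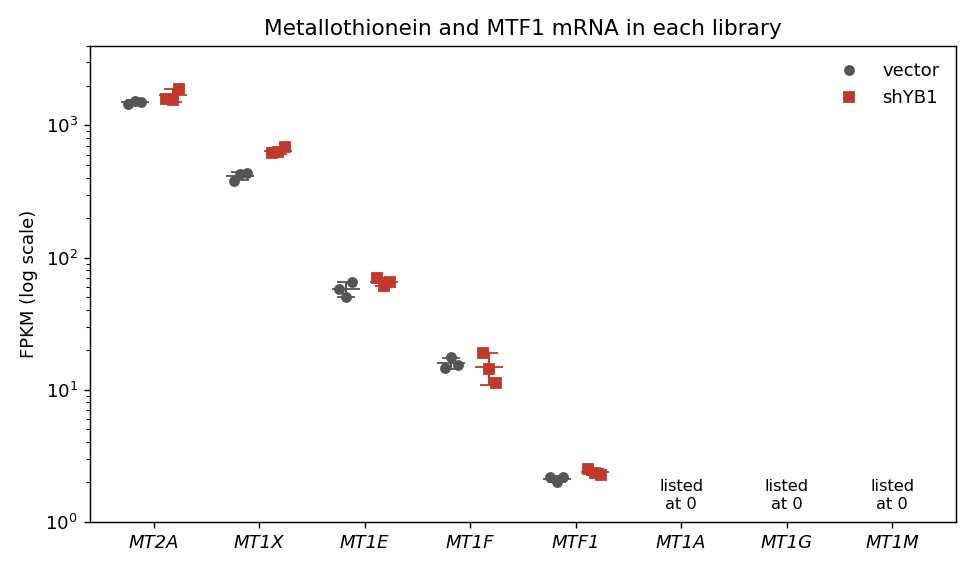
FPKM of each member (log scale) in the 3 vector (grey circles) and 3 shYB1 libraries (red squares), with the mean and SD beside the points. The MT1X groups are clearly separate, at means of 414.5 and 642.8 FPKM, those of MT1E and MT1F overlap, and MT1A, MT1G and MT1M are listed at 0.

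**Figure D2:**
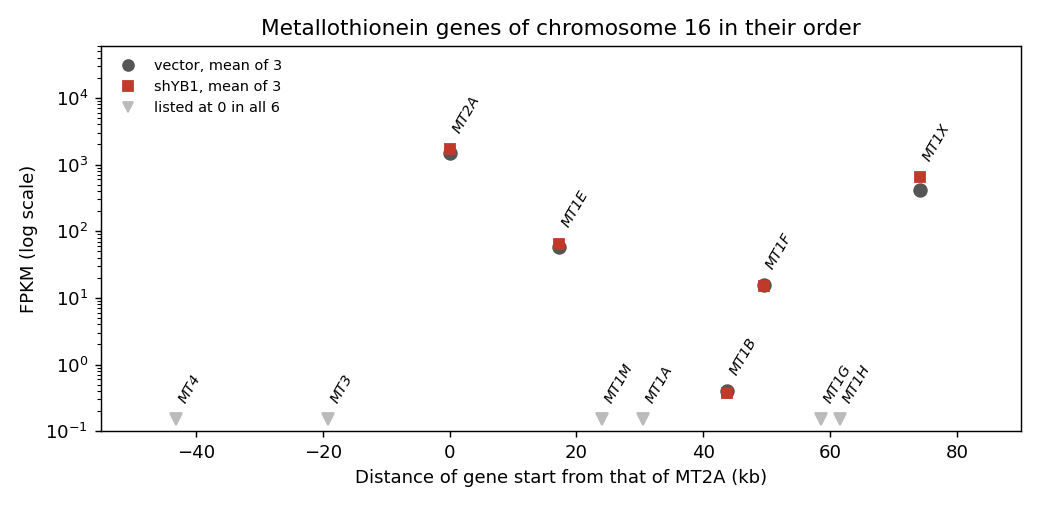
Mean FPKM (log scale) of the metallothionein genes of chromosome 16 against the distance of the gene start from that of MT2A in kb, for vector (grey circles) and shYB1 cells (red squares, n = 3 each). Grey triangles mark genes listed at 0 in all 6 libraries, placed at the bottom of the axis, and MT2A and MT1X, the most abundant members, lie 74.2 kb apart.

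The metallothioneins were also summed within each library. The 7 metallothioneins summed to 1894, 2037 and 2025 FPKM with vector and to 2302, 2269 and 2659 FPKM with shYB1. All shYB1 sums were above all vector sums, an order also found for 30.1% of the single genes tested. A two-sided exact permutation test of the sums gave p = 0.1, the smallest value that 3 libraries a group can reach. MT2A, which was not called, and MT1X made up nearly the whole sum. It therefore does not stand for every member and is not separate support for the call of MT1X. The means were 1985 ± 79.2 FPKM and 2410 ± 217 FPKM (SD, n = 3 each), a ratio of 1.21. The pool made up 0.691 ± 0.0249% of all listed FPKM in vector cells and 0.836 ± 0.0686% in shYB1 cells (SD, n = 3 each).

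The members were then set against each other within each library, where shares and ratios do not depend on a single scaling factor per library. Quantile normalization is not of this kind and can change them. Of the pool, MT1X took 20.1%, 20.9% and 21.6% with vector and 26.8%, 27.7% and 25.7% with shYB1. Its share was higher in every shYB1 library than in any vector library, with means of 20.9 ± 0.738% and 26.7 ± 0.989% (SD, n = 3 each). The share of MT2A was 75.4 ± 0.874% in vector cells and 69.9 ± 1.31% in shYB1 cells (SD, n = 3 each), and these groups did not overlap either. The MT2A share was lower although its mean FPKM was higher in shYB1 cells, since MT1X belongs to the same pool. These shares and the ratio of MT2A to MT1X rest on the values from which MT1X was called, and are not separate support. MT2A thus exceeded MT1X by 3.62 ± 0.167 times in vector cells and by 2.62 ± 0.146 times in shYB1 cells (SD, n = 3 each; p = 0.1 in the same exact test). The ratio of MT2A to MT1E, in contrast, was 26.2 ± 4.05 and 25.9 ± 3.09 (SD, n = 3 each), and its groups overlapped (two-sided exact permutation test, p = 0.9). The shares of MT1E, at 2.92 ± 0.403% and 2.72 ± 0.284%, and of MT1F, at 0.795 ± 0.0585% and 0.627 ± 0.204%, overlapped between vector and shYB1 cells (SD, n = 3 each). FPKM correct for transcript length as the authors' software modelled it, so ratios between genes depend on the transcript models, and a change in the ratio shows an unequal change of the 2 genes.

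**Figure D3:**
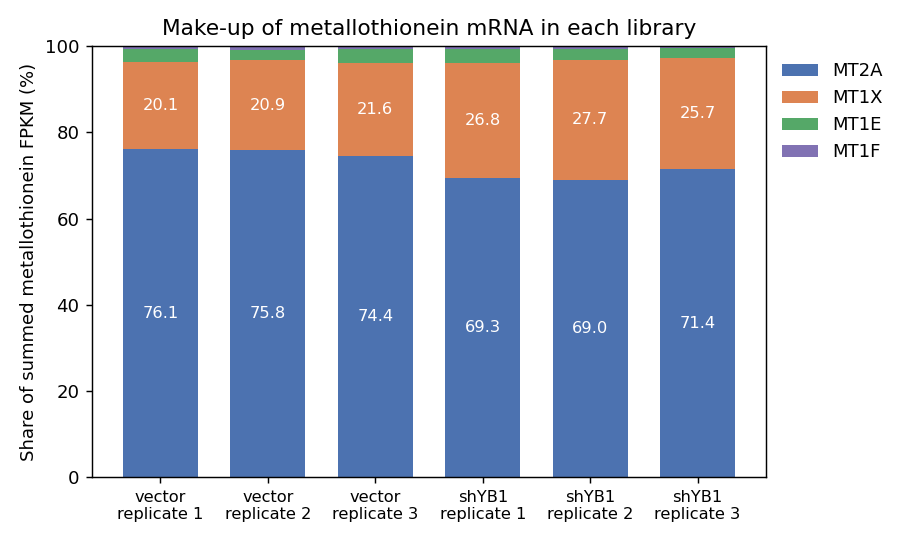
Share of each metallothionein in the summed metallothionein FPKM (%) for each library, with the shares of MT2A and MT1X printed in the bars. MT1X takes 20.1 to 21.6% in the vector libraries and 25.7 to 27.7% in the shYB1 libraries.

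**Figure D4:**
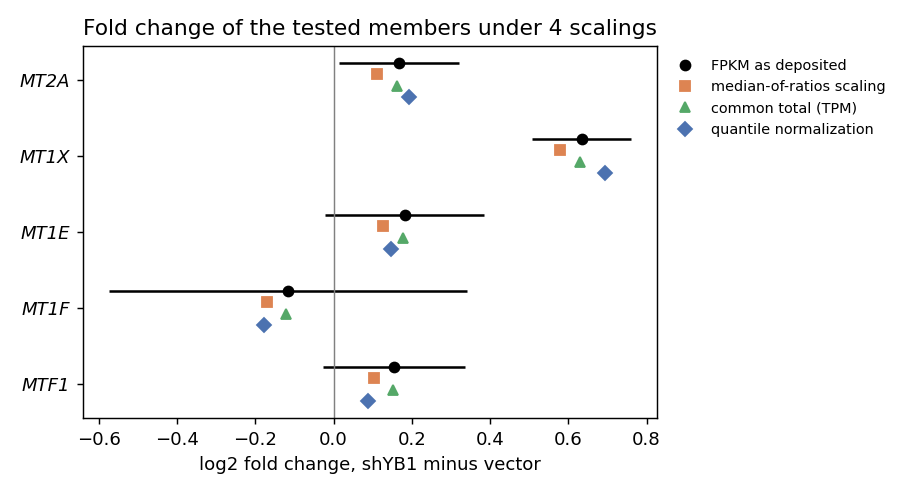
log2 fold change (shYB1 minus vector) of the 5 tested members with FPKM as deposited (black, with the 95% confidence interval from limma) and under median-of-ratios, common total and quantile scaling (no intervals drawn). MT1X lies between 0.58 and 0.69 under all 4 scalings, and no member changes sign.

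The genes whose pattern over the 6 libraries was most like that of MT2A were CHST3, NAB2, POLR3K, MRPL40 and ITGB6, with Pearson's correlations of log2(FPKM + 0.1) of 0.992, 0.984, 0.984, 0.984 and 0.977. They are described without a test, because 6 libraries in 2 groups share the group difference and many genes were searched. None of the 5 was called, and like MT2A each had its highest value in shYB1 replicate 3. In CHST3 the difference between the groups was small, at 8.04 ± 0.0807 FPKM with vector and 8.28 ± 0.195 FPKM with shYB1 (SD, n = 3 each), and its log2 fold change was below 0 after median-of-ratios scaling or quantile normalization.

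The transporters that set cellular zinc were examined next. Most members of the SLC30 family, listed here as zinc exporters, move zinc out of the cytosol. Of the 10 genes 5 were tested, of which 1 was called higher and 0 lower, a share near the 18.7% of all genes called higher. SLC30A1, which exports zinc across the plasma membrane and is a known MTF1 target, had vector values of 5.657, 6.697 and 5.304 FPKM beside shYB1 values of 6.122, 6.989 and 6.899 FPKM. The groups overlapped through vector replicate 2, and the log2 fold change of 0.18 did not pass the test (adjusted p = 0.157 from limma). Without vector replicate 2 it was 0.28 and passed (adjusted p = 0.0312 from limma; 0.0312 to 0.390 over the alternatives). SLC30A9, which releases zinc from mitochondria into the cytosol, rose from 22.3 ± 0.776 to 25.3 ± 0.189 FPKM (SD, n = 3 each), a log2 fold change of 0.18 (adjusted p = 0.00853 from limma). SLC30A5, which acts in the secretory pathway, had 7.38 ± 0.325 and 7.25 ± 0.527 FPKM (SD, n = 3 each; adjusted p = 0.798 from limma).

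Zinc importers of the SLC39 family bring zinc into the cytosol. Of the 14 genes 11 were tested, of which 4 were called lower and 0 higher, against 6.93% lower among all genes tested. With median-of-ratios scaling the count of lower importers was also 4, against 12% of all genes. The median log2 fold change of the importers as deposited was 0.041. SLC39A14, a carrier of zinc, iron and manganese, had vector values of 44.01, 45.14 and 43.14 FPKM beside shYB1 values of 36.04, 37.26 and 35.42 FPKM. These groups were well apart, and the log2 fold change was −0.28 (adjusted p = 0.000465 from limma). SLC39A1, the most abundant importer, fell from 86.1 ± 3.30 to 78.3 ± 0.380 FPKM (SD, n = 3 each; log2 fold change −0.14, adjusted p = 0.0187 from limma). SLC39A11 fell from 2.20 ± 0.105 to 1.59 ± 0.119 FPKM (SD, n = 3 each; log2 fold change −0.45, adjusted p = 0.00514 from limma). SLC39A10, known to be repressed by MTF1, fell from 3.43 ± 0.199 to 2.83 ± 0.124 FPKM (SD, n = 3 each; log2 fold change −0.27, adjusted p = 0.0224 from limma). SLC39A7, which releases zinc from the endoplasmic reticulum, had 41.0 ± 2.76 and 42.8 ± 1.72 FPKM (SD, n = 3 each) and was not called (adjusted p = 0.399 from limma). The calls of SLC39A1 and SLC39A10 were lost in some alternatives. That of SLC39A1 was lost with a variance prior without trend (adjusted p = 0.0704 from limma) and without vector replicate 1, shYB1 replicate 1 or shYB1 replicate 2 (adjusted p = 0.0662, 0.0525 and 0.0633 from limma; 0.00352 to 0.0704 over the alternatives). That of SLC39A10 was lost without vector replicate 2, shYB1 replicate 1 or shYB1 replicate 3 (adjusted p = 0.0759, 0.0510 and 0.0704 from limma; 0.00947 to 0.0759 over the alternatives). Without shYB1 replicate 1 the importers called lower were therefore 2, and without shYB1 replicate 2 they were 3, beside 1, SLC39A4, called higher. The count was also 2 with the filter at a mean of 5 FPKM, which left out the weakly expressed SLC39A10 and SLC39A11. It was 3 with the variance prior without trend. The same count was found without vector replicate 1, vector replicate 2 or shYB1 replicate 3.

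The fixed list of MTF1 targets and coactivators has 7 genes, and of the 6 tested, 1 was called higher and 1, SLC39A10, lower, against 25.7% of all genes called in either direction. PGF, which encodes placental growth factor and is induced by MTF1 in hypoxia, rose from 23.5 ± 0.353 to 28.1 ± 1.54 FPKM (SD, n = 3 each; log2 fold change 0.26, adjusted p = 0.00273 from limma). The coactivators of MTF1 on the list, SP1 and EP300, had log2 fold changes of −0.033 and 0.038 and were not called (adjusted p = 0.675 and 0.638 from limma), and that of EP300 was below 0 with median-of-ratios or quantile scaling.

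Copper is the other physiological metal of metallothioneins. Of the 9 genes of copper handling, all tested, 1 was called higher and 0 lower, a smaller share than the 18.7% of all genes called higher. The gene was SOD1, the superoxide dismutase that holds copper and zinc, at 162.8 ± 9.22 and 181.5 ± 1.85 FPKM (SD, n = 3 each; log2 fold change 0.16, adjusted p = 0.0170 from limma). The call was lost with median-of-ratios scaling, when the variance prior had no trend, and without vector replicate 1, vector replicate 2 or shYB1 replicate 1 (adjusted p = 0.0608, 0.0674, 0.0673, 0.0612 and 0.0542 from limma; 0.000687 to 0.0674 over the alternatives). The copper chaperones COX17, at 41.2 ± 3.801 and 42.8 ± 1.89 FPKM, and ATOX1, at 36.1 ± 2.94 and 39.1 ± 4.403 FPKM (SD, n = 3 each), were not called (adjusted p = 0.533 and 0.346 from limma).

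Genes that respond to heavy metals through other factors were compared as well, and 3 of 7 tested were called higher and 0 lower, against 18.7% and 6.93% of all genes. With median-of-ratios scaling 2 were higher and 1, the heat shock gene DNAJB1, lower, against 11.4% and 12%. As deposited, DNAJB1 had a log2 fold change of −0.14 and was not called (adjusted p = 0.0611 from limma). The count of lower genes was also 1 with the filter at 5 FPKM, common total or quantile scaling, and without vector replicate 2. The 3 genes called higher as deposited were GCLM, which supplies glutathione synthesis, and SRXN1 and TXNRD1, which reduce oxidised proteins. Their log2 fold changes were 0.28, 0.22 and 0.15 (adjusted p = 0.00968, 0.00944 and 0.00798 from limma). TXNRD1 lost its call with median-of-ratios scaling (adjusted p = 0.0511 from limma; 0.00515 to 0.0511 over the alternatives). HMOX1, the heme oxygenase that cadmium strongly induces, had 22.3 ± 1.41 and 24.6 ± 0.612 FPKM (SD, n = 3 each; adjusted p = 0.0573 from limma), and was called with the filter at a mean of 5 FPKM and without vector replicate 1 (adjusted p = 0.0414 and 0.0398 from limma; 0.0398 to 0.298 over the alternatives). The heat shock factor HSF1 had a log2 fold change of 0.050 (adjusted p = 0.498 from limma), which was below 0 with median-of-ratios scaling.

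Glucocorticoids induce MT2A and MT1X through the glucocorticoid receptor. On the list of 8 glucocorticoid response genes, 7 were tested, of which 3 were called lower and 0 higher, against 6.93% lower among all genes tested. With median-of-ratios scaling the count was also 3, against 12% of all genes. TSC22D3, an anti-inflammatory target of the receptor, had vector values of 23.32, 22.14 and 22.74 FPKM beside shYB1 values of 17.37, 18.63 and 18.48 FPKM. The groups did not overlap, and the log2 fold change was −0.32 (adjusted p = 0.000638 from limma). The kinase SGK1 fell from 7.47 ± 0.323 to 6.003 ± 0.239 FPKM and the clock gene PER1 from 2.32 ± 0.112 to 1.87 ± 0.106 FPKM (SD, n = 3 each; adjusted p = 0.00351 and 0.0243 from limma). The PER1 call was lost without vector replicate 1, vector replicate 3, shYB1 replicate 2 or shYB1 replicate 3 (adjusted p = 0.0753, 0.0668, 0.0561 and 0.0775 from limma; 0.0118 to 0.0775 over the alternatives). DUSP1 and KLF9 had log2 fold changes of 0.040 and 0.011 and were not called (adjusted p = 0.343 and 0.915 from limma), and both were below 0 with median-of-ratios scaling. The part of glucocorticoid signalling in the level of MT1X was not tested.

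**Figure D5:**
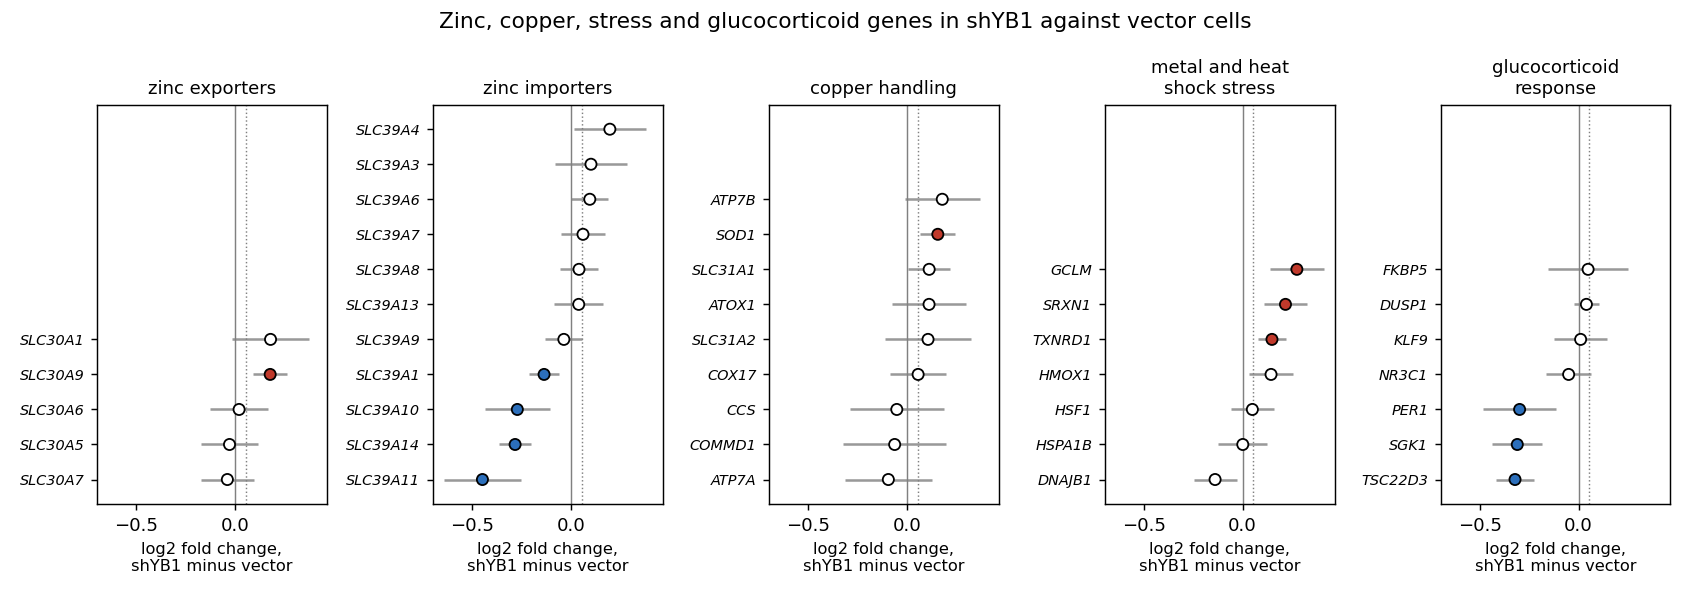
log2 fold change (shYB1 minus vector, n = 3 each) of the tested genes of 5 fixed lists, with 95% confidence intervals from limma. Red and blue points were called higher and lower, white points were not called, and the dotted line is the median of all genes tested, 0.055. The 4 blue importers lie below and the 3 red stress genes above 0.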

How the data were processed

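RNA-seq of 6 libraries of 786-O cells (3 vector, 3 shYB1) was analysed from the FPKM that the authors deposited for each library and gene, and no other columns of values were used. The submitters' processing notes name Trimmomatic, HISAT2, Cufflinks, HTSeq and DESeq with GRCh38, without versions, and do not say which step made the FPKM. Reads of near-identical metallothioneins may have been split or dropped at that step. The table holds no counts, so absolute depth is unknown and no interval that needs it was computed.

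Groups were taken from the labels. From the deposited FPKM, log2(FPKM + 0.1) of the 10439 genes averaging 1 FPKM or more was compared with limma 3.58.1 in R 4.3.3 (trend and robust prior) in a two-sided test, and the p-values of all genes tested were adjusted by the Benjamini-Hochberg method. This fit was first run on simulated data with independent noise and no shift between libraries. That run does not bear on the scaling of the real libraries. Single genes were also compared with exact permutation tests. Coordinates and transcripts came from GENCODE 29 (GRCh38), promoters from RefSeq (GRCh38.p14), which held 3 of the 8 members. Of the promoter table, only the 250 bases before each start were searched.

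The members, gene lists and tests were chosen with earlier results of these data known. Named are YBX1, all members, the called genes and the 3 most abundant genes of each list on metals, stress and glucocorticoids, and the 5 genes most correlated with MT2A. MT1B, DNAJB1, SLC39A4 and the genes beside the cluster were chosen after their values were seen. The alternatives were other pseudocounts, filters, scalings and variance priors, a replicate block and the omission of each library.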

Additional observations from a re-analysis of the deposited data

How the results depend on the processing

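MT1X kept its direction and its call in the 15 alternatives that kept the limit on the adjusted p. The number of members called higher was 2 in place of 1 with quantile normalization, which added MT2A (log2 fold change 0.19), and ranged from 1 to 2 when a library was left out. Over all genes, 1253 were lower and 1191 higher with median-of-ratios scaling, and 1184 lower and 1267 higher with quantile normalization, against 723 and 1956 as deposited. The share of higher genes among the calls fell from 73.0% to 48.7% and 51.7%. Requiring 2-fold differences and p under 0.05 without adjustment left 19 genes lower and 4 higher, with 0 members among them (a count added after seeing the data), since the difference of MT1X was smaller than 2-fold. With a library left out, 517 to 609 genes were lower and 1324 to 1948 higher. The log2 ratio of the summed metallothioneins, 0.28, ranged from 0.20 to 0.32 in alternatives partly chosen after seeing the data, the lowest without shYB1 replicate 3. The labels do not say whether the replicate numbers pair the libraries. The deviations of same-numbered libraries correlated at −0.169, −0.0590 and −0.00824 across genes, which cannot settle it with so few libraries. With the replicate number as a block, 760 genes were lower and 2074 higher, MT1X remained the only member called (adjusted p = 4.20e-06 from limma), and MT1E had an adjusted p of 0.0524. Over 35 named genes and 520 values, 479 kept their side of the threshold and their direction, 17 lost a call, 9 gained one and 15 changed sign. None of those that changed sign was called as deposited. With median-of-ratios scaling the log2 fold changes that changed sign were −0.016 (EP300), −0.0055 (HSF1), −0.015 (DUSP1), −0.044 (KLF9) and −0.014 (CHST3), and with quantile normalization −0.020 (EP300), −0.041 (KLF9) and −0.019 (CHST3). With a library left out, they ranged from −0.31 to 0.069 for MT1F, −0.067 to 0.033 for SLC30A5, −0.059 to 0.014 for SP1, −0.0039 to 0.13 for COX17 and −0.034 to 0.064 for KLF9. The cause of these moves was not tested. Without counts, the depth behind the low values of MTF1 and MT1B could not be judged.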

Other observations

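The genes that flank the metallothionein cluster were compared after the values of the members had been seen. Within 500 kb of the cluster, 9 other genes were tested, of which 4 were called higher and 2 lower in shYB1 cells by limma, against 25.7% called among all genes tested. With the other 3 scalings 3 to 4 were higher and 1 to 2 lower. NUP93, a nuclear pore gene and the nearest tested gene beyond MT1X, had a mean of 14.0 FPKM in vector and 17.1 FPKM in shYB1 cells (log2 fold change 0.29, adjusted p = 0.00268 from limma). HERPUD1, a target of the unfolded protein response farther along, had means of 56.0 and 44.2 FPKM (log2 fold change −0.34, adjusted p = 0.000144 from limma). On the other side, OGFOD1 and NUDT21 were called higher, with log2 fold changes of 0.29 and 0.21 (adjusted p = 0.00523 and 0.00221 from limma), whereas BBS2, the nearest tested gene before MT2A, had −0.044 and was not called (adjusted p = 0.660 from limma). Also called were FAM192A, higher by 0.25, and NLRC5, lower at −0.21 (adjusted p = 0.0194 and 0.0428 from limma). The calls around the cluster thus went in both directions.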
